A study of Mus musculus with 36 samples.

Results

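MSR-dCas9-Activator MEF cells were compared with MSR-dCas9-Control MEF cells 12 h after doxycycline removal, 3 libraries against 3 of the 36 libraries in the series, over all 54842 genes and 1561 repeat families that were counted. MEF cells are mouse embryonic fibroblasts. Both lines carried an inducible dCas9 construct and the same guide RNA against the major satellite repeat (MSR), delivered by PiggyBac transposition, and were kept as mixed populations and not as single clones. In the MSR-dCas9-Activator line dCas9 was fused to VPR, a transcriptional activator, and in the MSR-dCas9-Control line dCas9 had no effector. Doxycycline (10 ng/ml) was given to MSR-dCas9-Activator cells for 6 h and to MSR-dCas9-Control cells for 24 h, and both were then kept for 12 h in medium without it. The effector and the length of doxycycline exposure therefore cannot be told apart in this comparison. The study describes the 3 libraries of each group as biological replicates and its RNA sequencing as independent experiments.

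Mouse centromeres are flanked by long tandem arrays of the MSR, an A/T-rich satellite that is packaged into heterochromatin by H3K9 methylation and HP1 proteins and is transcribed at low levels. The minor satellite lies at the centromere itself and carries the kinetochore. Endogenous retroviruses, LINE and SINE elements form the interspersed repeats, and many of the retroviral families are silenced by the same methylation systems.

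The 6 libraries held 34340450 to 46838088 counts on genes and 10744490 to 16752224 on repeat families. Genes were called changed at an adjusted p under 0.05, a fold above 2 and a mean above 100 normalised counts over the 36 libraries, and repeat families at an adjusted p under 0.05 and a log2 fold change beyond 0.5. Libraries differed in ways that touch single results. The MSR-dCas9-Activator replicate 3 had 5.35% of its counts on rRNA repeat families, where the other 5 libraries had at most 0.0813%. Gm26917, a long noncoding RNA gene with rRNA-like sequence and the most abundant gene in each of the 6 libraries, took 6.60%, 9.63% and 11.1% of counts in MSR-dCas9-Activator replicates 1 to 3 and 0.861%, 1.75% and 5.83% in MSR-dCas9-Control replicates. In MSR-dCas9-Control cells at 24 h this share again rose with the replicate number (0.94%, 1.92% and 5.48%). In MSR-dCas9-Activator cells at 24 h replicate 3 was again highest, but replicate 2 was lowest (6.51%, 5.0% and 11.0%). Replicate 2 of the MSR-dCas9-Activator group had the weakest change in 87.3% of the genes called lower, with a median log2 difference from the MSR-dCas9-Control mean of -1.10 against -1.77 and -1.61 in replicates 1 and 3. The rises did not share this order, with medians of 1.93, 2.18 and 2.15 in replicates 1, 2 and 3.

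The fibroblast label was checked on 14 marker genes. Of the 13 that could be tested, 6 fell and 0 rose, and their summed level was 701906 to 816157 normalised counts in MSR-dCas9-Activator cells and 985255 to 1039686 in MSR-dCas9-Control cells. Among all genes with a mean above 100, 21.7% were called lower. Col1a1, which encodes a chain of type I collagen, was at 212380, 212280 and 213399 in MSR-dCas9-Activator replicates 1 to 3 and at 373024, 376058 and 368228 in MSR-dCas9-Control replicates. It was not called, with a log2 fold change of -0.81. Of the other uncalled members, Vim (-0.58) and Fbn1 (-0.39) were lower. Fn1 (0.40), Sparc (0.30), Col3a1 (0.09) and the weakly expressed Postn (2.37) were higher. The surface marker Thy1 was at or near 0 in both groups, with at most 8.60 normalised counts. Cells of both groups carried high levels of collagen transcripts. In bulk RNA, fewer cells of a type and less RNA per cell cannot be told apart. Marker lists of 10 other cell types were also summed. Endothelial genes were at 2001 to 2151 in MSR-dCas9-Activator cells and at 161 to 200 in MSR-dCas9-Control cells. Pecam1, an adhesion molecule of endothelium, and Tek, the angiopoietin receptor, were the 2 called members, with log2 fold changes of 6.69 and 5.43, while 5 of the 10 endothelial markers had a mean under 10 normalised counts. Testis markers were at 564 to 602 against 19 to 25, and skeletal muscle markers at 405 to 749 against 74 to 103, with Acrv1 and Tnnc2 as the called members. Pecam1, Tek, Acrv1 and Tnnc2 had at most 20.5 normalised counts in any MSR-dCas9-Control library at 12 h. They passed the limit on the mean only through libraries in which they are high, so their direction was fixed by the filter. Liver (956 to 1259 against 664 to 680), macrophage (1250 to 1338 against 575 to 591), epithelial (459 to 533 against 233 to 242), lung (252 to 270 against 101 to 103) and pancreas (49 to 80 against 9 to 26) lists were higher without a called member. Brain and erythroid lists overlapped between the groups, and Mbp of the brain list was called lower at -1.01. The part of other cell types in the gene results was not tested.

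Major and minor satellite transcripts were the most strongly raised repeat families. GSAT_MM, the MSR family, was at 330627, 811697 and 1973299 normalised counts in MSR-dCas9-Activator replicates 1, 2 and 3 and at 1540, 1547 and 1133 in MSR-dCas9-Control replicates. The groups did not overlap, and the MSR-dCas9-Activator libraries spread widely, with replicate 3 highest. On the log2 scale the fold change was 9.22, with a standard error of 0.88 and an adjusted p of 2.67e-09 (quasi-likelihood test of edgeR, Benjamini-Hochberg adjustment). SYNREP_MM, the minor satellite family, was at 87595, 42051 and 58860 normalised counts against 68.8, 76.9 and 75.2. All 3 MSR-dCas9-Activator libraries were far above the others, here with replicate 1 highest, and the log2 fold change of 9.65 had a standard error of 0.48 and an adjusted p of 1.21e-14 (edgeR). SYNREP_MM was called higher before induction too, with a log2 fold change of 2.90, while GSAT_MM was not, at 1.20 with a standard error of 0.63. Satellite families together took 0.769%, 1.58% and 2.92% of all counts in the MSR-dCas9-Activator libraries and 0.0663% to 0.0774% in the MSR-dCas9-Control libraries. Replicate 3 also had the largest satellite share of the MSR-dCas9-Activator libraries at 6 h (2.41%) and at 24 h (2.81%).

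**Figure D1:**
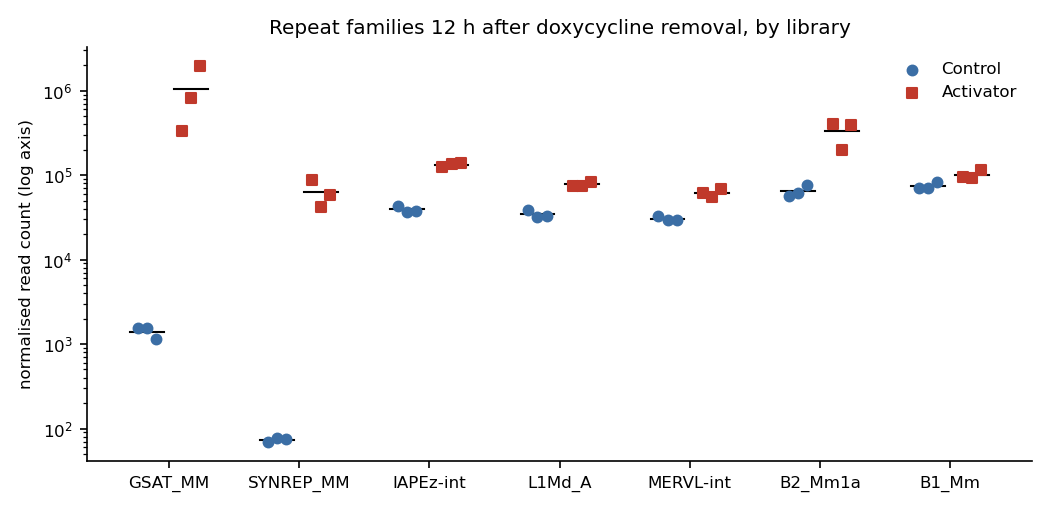
Normalised read counts (log axis) of 7 repeat families in each of the 3 MSR-dCas9-Control (circles) and 3 MSR-dCas9-Activator (squares) libraries 12 h after doxycycline removal, with the group mean as a line. Both satellite families, GSAT_MM and SYNREP_MM, are separated by more than a factor of 100, and B1_Mm is the only family of the 7 that was not called.

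Satellite sequence is also counted in annotated gene models. These models were picked with their values in view. They share sequence with the satellite family, so how reads were split between them is uncertain. All 11 of them with a mean above 100 were called higher, with a median log2 fold change of 11.25, but they passed the limit only through libraries in which they are high, so their direction was fixed by the filter. They took 0.399%, 1.13% and 2.18% of counts in MSR-dCas9-Activator replicates 1 to 3. Gm10801 was at 20276, 33563 and 76533 normalised counts against 5.21, 9.29 and 7.82. It followed the order of GSAT_MM across the 3 MSR-dCas9-Activator libraries and was already called higher before induction, with a log2 fold change of 3.70 against 12.37 at 12 h. Its first exon, chr2:98662237-98662522 on the plus strand of GRCm38, is shown from the GENCODE M21 transcript because it is the kind of satellite sequence that the gene table counts. Capitals mark the stretches in which every 16-base word recurs in at least 6 of the 11 other satellite-like models.
Gm10801 exon 1: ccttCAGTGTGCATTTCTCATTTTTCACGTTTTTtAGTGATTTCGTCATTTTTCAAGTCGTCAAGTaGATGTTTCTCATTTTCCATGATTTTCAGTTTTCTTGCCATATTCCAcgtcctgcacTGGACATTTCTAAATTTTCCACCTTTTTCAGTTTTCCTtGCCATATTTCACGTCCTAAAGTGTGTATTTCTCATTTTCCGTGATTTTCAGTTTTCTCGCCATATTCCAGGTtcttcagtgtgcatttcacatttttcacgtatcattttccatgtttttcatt
The capitals cover 217 of its 286 bases.

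Beyond satellites, most retroviral families were higher in MSR-dCas9-Activator cells. Of 1492 repeat families tested, 677 were called higher (45.4%) and 86 lower (5.76%), together 51.1%, with a median log2 fold change of 0.45. Among LTR families 467 of 662 rose and 16 fell, with a median of 0.81. Within this class the ERVK families led by count, with 230 of 279 higher and 3 lower, followed by ERV1 with 92 of 138, ERVL with 68 of 109 and MaLR with 50 of 104. Under scaling to mitochondrial mRNAs 201 LTR families were higher and 60 lower, and the medians of ERVL and MaLR turned to -0.01 and -0.16. All 9 internal IAP sequences and all 10 IAP LTRs rose, with medians of 2.08 and 1.49. IAPs are active retroviruses of the mouse genome. IAPEz-int was at 124029, 135508 and 139142 normalised counts in MSR-dCas9-Activator libraries and at 43460, 37118 and 37603 in MSR-dCas9-Control libraries. The replicates lay close together in each group, and the log2 fold change of 1.75 had a standard error of 0.13 and an adjusted p of 8.88e-25 (edgeR).

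The MERVL-int and MT2_Mm families, the body and LTR of the retrovirus known for its activity in embryos at the first cleavage, rose by log2 fold changes of 1.01 (standard error 0.13) and 0.93 (standard error 0.13), and had 0.36 and 0.29 without a call under scaling to mitochondrial mRNAs. MERVL-int was at 61930, 55390 and 68363 normalised counts against 32724, 29577 and 29549, without overlap. None of the genes of the list known from that embryo stage passed the limit on the mean. Zfp352, its member with the highest mean, was at 113, 34.1 and 116 against 6.26, 7.60 and 7.82. Of the LINE-1 families 46 of 132 rose and 2 fell, and all 6 young L1Md families rose, with a median of 1.00, but under scaling to mitochondrial mRNAs 7 LINE-1 families were higher and 42 lower (median -0.33) and 2 of the 6 L1Md families stayed called (median 0.35). L1Md_A was at 73906, 74998 and 83926 normalised counts against 39185, 31871 and 32839, a log2 fold change of 1.16 (standard error 0.13).

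**Figure D2:**
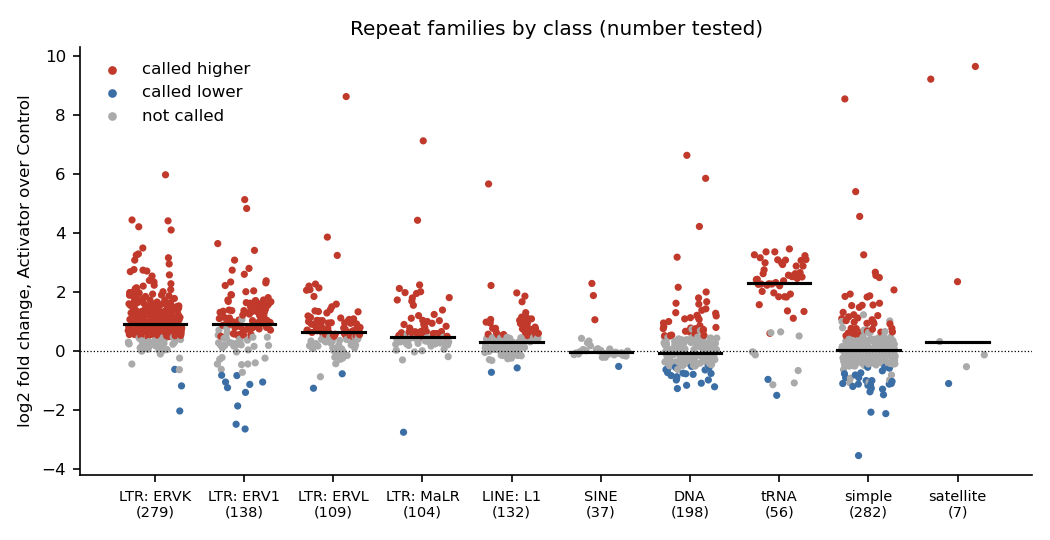
Log2 fold change of each repeat family tested, MSR-dCas9-Activator over MSR-dCas9-Control at 12 h, by class or family group, with the median as a line and the number tested in parentheses. The medians of ERVK and tRNA families lie at 0.94 and 2.31, while SINE and DNA families sit around 0 at -0.03 and -0.04.

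Of 37 SINE families 3 rose and 1 fell (median -0.03), and the 3 were all B2 elements. Under scaling to mitochondrial mRNAs 2 SINE families were higher and 30 lower. B1, B2 and tRNA genes are transcribed by RNA polymerase III. B2_Mm1a was at 407856, 197423 and 390213 normalised counts in MSR-dCas9-Activator replicates and at 57151, 61894 and 76633 in MSR-dCas9-Control replicates, a log2 fold change of 2.30 (standard error 0.30). B1_Mm, which is also a SINE, had a log2 fold change of 0.44 and missed the limit. Of 10 B1 families 0 were called, with a median of 0.05. Of the tRNA families 45 of 56 rose and 2 fell, with a median of 2.31. The signal recognition particle RNA family 7SLRNA (1.25), and 7SK (1.34), the RNA that holds the elongation factor P-TEFb inactive, also rose. Among gene models of polymerase III transcripts, chosen after their values were seen, 6 of 7 with a mean above 100 rose and 0 fell, with a median of 1.26. Rn7sk was at 421029, 243768 and 317819 against 144059, 156340 and 107323, and replicate 2 was the lowest of its group. Of these models 2 are the same gene, Rmrp, and Rpph1 shares its reads with the overlapping Ccnb1ip1. When libraries were scaled to mitochondrial mRNAs, 0 of the 7 passed, with a median of 0.60.

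Other repeats with large changes were single families. (CAGGG)n, a simple repeat, was at 15590, 14531 and 17558 normalised counts against 371, 374 and 368, a log2 fold change of 5.41 (standard error 0.24). ERVB5_1-I_MM-int (4.45), MLT1I-int (4.44) and IAPLTR4_I (4.22) followed among families with a mean of at least 100. LSU-rRNA_Hsa had the highest value of these at 6.69, but MSR-dCas9-Activator replicate 3 held 3741919 normalised counts where the others of its group held 38274 and 20012. The families with the largest falls were MER72B (-2.63), the U5 small nuclear RNA family (-1.90) and the conserved elements Eulor9A (-1.26), UCON6 (-1.22) and UCON4 (-1.17).

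As a share of all counts, repeat families took 26.5%, 28.3% and 30.6% in MSR-dCas9-Activator libraries and 22.4%, 21.8% and 20.8% in MSR-dCas9-Control libraries. The difference was 6.80 percentage points with no overlap (p = 0.1, two-sided exact permutation test of 3 against 3, the smallest p this design allows). Without satellites it was 5.07 points. Without satellite and rRNA families, an alternative added after the data were seen, it was 3.30 points and the groups overlapped (exact permutation p = 0.2).

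Of 28542 genes tested, 1269 were called higher (4.45%) and 2954 lower (10.3%), 4223 in all (14.8%), so that 30.05% of the called genes were higher. This split depends on the limit on the mean and on the scaling. Without the limit 9122 genes were higher and 5145 lower, and over all genes tested the median was 0.155 on the log2 scale. Of the genes tested, 8145 had a mean under 10 normalised counts in MSR-dCas9-Control cells, with a median log2 fold change of 4.51. Such genes can enter the test through libraries in which they are high, so that split and median are set in part by the filter. With the limit, the share of higher genes was 42.1% with DESeq2 size factors, 23.5% with library size alone and 9.67% with scaling to mitochondrial mRNAs. The median log2 fold change of the 13582 genes with a mean above 100 was -0.26, and -0.9 under mitochondrial scaling, and changes are to be read against these medians. Repeat families turned from mostly higher to 290 higher and 461 lower under mitochondrial scaling, with a median of -0.19. Under that scaling, and with library size alone, the fit also estimated the spread of repeat families otherwise. Counts of called repeat families under these settings, here and elsewhere, therefore do not reflect the scaling alone. Among the genes with a mean above 100, to which the counts in lists refer, 9.34% were higher and 21.7% lower.

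**Figure D3:**
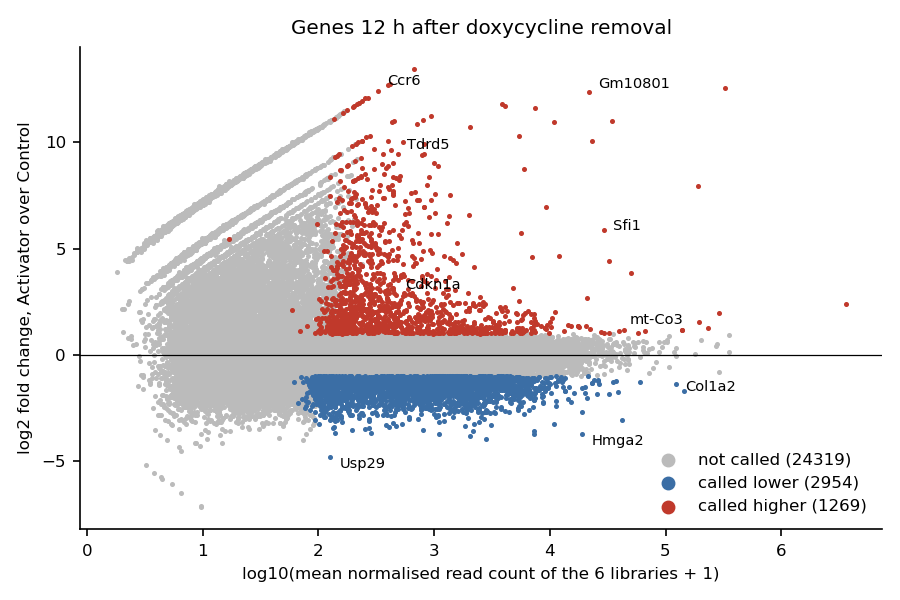
Log2 fold change of each of 28542 genes, MSR-dCas9-Activator over MSR-dCas9-Control at 12 h, against the mean normalised read count of the 6 libraries on a log10 scale. The 1269 genes called higher reach log2 fold changes above 10 and the 2954 called lower reach -4.81 (Usp29).

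The largest rises among genes were in genes with few or no counts in MSR-dCas9-Control cells. A total of 177 genes called higher had a mean under 10 normalised counts in MSR-dCas9-Control cells, and 14 of them had 0 counts in all 3 libraries of that group. Such genes pass the limit on the mean only through libraries in which they are high, so their direction was fixed by the filter. In MSR-dCas9-Activator libraries their mean ranged from 31.4 to 43456, with a median of 473. Of the 177, 6 were already called before induction. Creg2, which had the lowest of these means, was among the 6, with a log2 fold change of 12.27 before induction. Gm25911 was high in MSR-dCas9-Activator replicate 3 alone, with 7.99, 2.84 and 5614 normalised counts in replicates 1 to 3. Olfr1419, an olfactory receptor gene (chr19:11868613-11875106), was at 1249, 1256 and 1530 in MSR-dCas9-Activator replicates and at 0 in every MSR-dCas9-Control replicate. All 3 replicates gained similar counts, and the level was at least 1400-fold higher, taking 3 counts over the group as the floor. Ptger3, a prostaglandin E2 receptor, was at 888, 579 and 999 (at least 842-fold higher) and Fgf6, a fibroblast growth factor of muscle, at 662, 832 and 878 (at least 825-fold higher), both from 0. The chemokine receptor gene Ccr6 was at 654, 558 and 749 and the xylosyltransferase gene Xylt1 at 591, 304 and 525, at least 676-fold and 490-fold higher. Olfr157, at 602, 378 and 612, and Gm31371, at 508, 393 and 446, were at least 548-fold and 473-fold higher.

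Some of these genes lay side by side. Of the 177, 65 had another of the set within 200000 bases. The same share for sets of other genes was not taken, so whether 65 is more than usual was not tested. The 65 include satellite-like models on chromosome 9 and overlapping genes such as Abcg5 and Abcg8, whose counts may not be independent. On chromosome 19, Gif, Olfr1419, Gm6365 and Olfr1420 formed one such group. Olfr1420 (chr19:11886565-11898079) was at 1486, 1601 and 1860 against 0, 2.53 and 1.95, and Gif, the gene for gastric intrinsic factor, at 507, 595 and 581 against 5.21, 3.38 and 0.977. Further along the chromosome, Gm4952, Glyat, Olfr1442, Olfr1443 and Keg1 formed another. Keg1 was at 359, 384 and 317 against 0 in all 3. The replicates of each of these genes lay within a narrow range, unlike GSAT_MM.

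Olfactory and vomeronasal receptor genes showed the reach of low-level counts. Of 1407 Olfr models, 842 had a count in at least 1 MSR-dCas9-Activator library and 177 in at least 1 MSR-dCas9-Control library. The family was chosen after its values were seen. All 15 with a mean above 100 were called higher, which the filter again fixed. The 1950 Olfr and Vmn models that were not called held 0.0346%, 0.0276% and 0.0301% of gene counts in MSR-dCas9-Activator replicates and 0.00226%, 0.00229% and 0.0019% in MSR-dCas9-Control replicates. The signal was uneven, with 894, 688 and 743 of the 1950 models holding any count in the MSR-dCas9-Activator libraries and 139 to 145 in the others. The RNA had been treated with DNase before library preparation, and the source of these low-level counts was not tested.

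Ccr6 was the only gene of the 117 with a promoter sequence in this set whose promoter holds a 16-base word of the satellite-like gene models. Its second promoter entry, chr17:8242276-8242575 on the plus strand of GRCm38, is shown from RefSeq with the shared word in capitals.
Ccr6 promoter: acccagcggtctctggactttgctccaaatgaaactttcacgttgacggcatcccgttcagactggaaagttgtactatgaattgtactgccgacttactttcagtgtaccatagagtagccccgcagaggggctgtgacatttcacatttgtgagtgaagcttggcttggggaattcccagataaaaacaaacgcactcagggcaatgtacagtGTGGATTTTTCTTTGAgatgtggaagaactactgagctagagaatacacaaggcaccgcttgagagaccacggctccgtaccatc
Of 27025 symbols with a promoter sequence, the satellite-like models left out, 22 (0.0814%) hold such a word on either strand, and 0 hold a word of 20 bases. The match is a description of the sequence and does not show a site.

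Single germline and neuronal genes were among the 177. Tdrd5, a piRNA pathway gene of the germline that is silenced by DNA methylation in somatic cells, was at 882, 1096 and 929 normalised counts against 1.04, 1.69 and 0.977, and it passed the limit on the mean only through MSR-dCas9-Activator libraries, like the other genes of the 177. It was 1 of 2 genes of the methylation-silenced germline list with a mean above 100, and the other was not called. Grin1, a subunit of the NMDA receptor, was at 769, 747 and 1131 against 3.13, 3.38 and 7.82, and the other 3 members of the neuronal list with a mean above 100, Tubb3, Scn2a and Elavl2, fell. Arc, an immediate early gene of neurons, lay just outside the 177. It was at 423, 375 and 445 against 9.38, 10.1 and 10.7, a log2 fold change of 5.33 (standard error 0.36). It too passed the limit on the mean only through libraries in which it is high.

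Genes near the centromeric end of chromosomes rose more often than others. Mouse chromosomes are telocentric, so their first bases lie beside the satellite arrays. Of 165 genes within 4 Mb of the start, 51 were called higher (30.9%) and 13 lower (7.88%), with a median log2 fold change of 0.53, against 7.99% to 13.4% higher in the bins further away. Without the satellite-like models it was 43 of 157 (27.4%) with a median of 0.47. Before induction the median of the 165 genes was 0.02. Sfi1, a centrosome gene at chr11:3131850-3193463 that was picked with its values in view, was at 58605, 52198 and 61774 normalised counts in MSR-dCas9-Activator replicates and 950, 1064 and 938 in MSR-dCas9-Control replicates. These groups lay far apart, with 5.86 ± 0.28 (standard error) as log2 fold change, and Sfi1 was not called before induction.

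**Figure D4:**
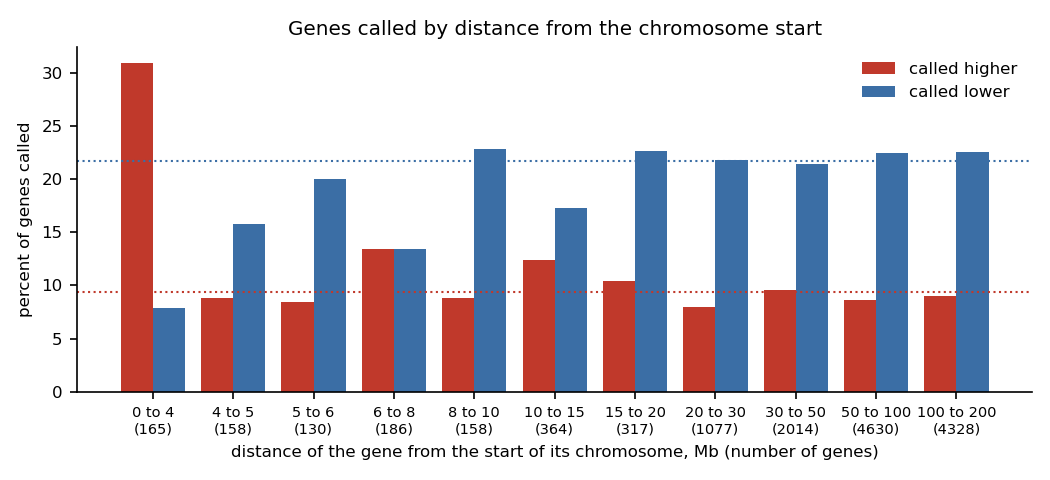
Percent of genes with a mean above 100 that were called higher or lower at 12 h, by distance from the start of the chromosome in Mb, with the number of genes in parentheses and dotted lines at the values of all genes (9.34% higher and 21.7% lower). The first bin, 0 to 4 Mb, holds 30.9% higher and 7.88% lower.

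Genes of heterochromatin were lower where they were called. Of 17 HP1 and histone methylation genes 7 fell (41.2%) and 0 rose, with a median of -0.86. Cbx5, which encodes HP1 alpha, averaged 10304 ± 471 normalised counts against 29586 ± 365 (SD, n = 3 in each group), and its log2 fold change was -1.52 with a standard error of 0.10. Suv39h1, an H3K9 methyltransferase, had -1.46, and Kmt5c, the H4K20 methyltransferase of heterochromatin, -2.27. Of 14 DNA methylation genes 6 fell and 0 rose, among them the methyltransferase Dnmt3b (-2.29) and the chromatin remodeller Hells (-1.16). Of 25 Polycomb genes 8 fell, led by Cbx2 (-2.23). The lamin gene Lmnb1 fell with a log2 fold change of -1.85, and 2 others of the 21 nuclear envelope genes fell with it. That is 14.3% of the list, below the 21.7% of all genes with a mean above 100.

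**Figure D5:**
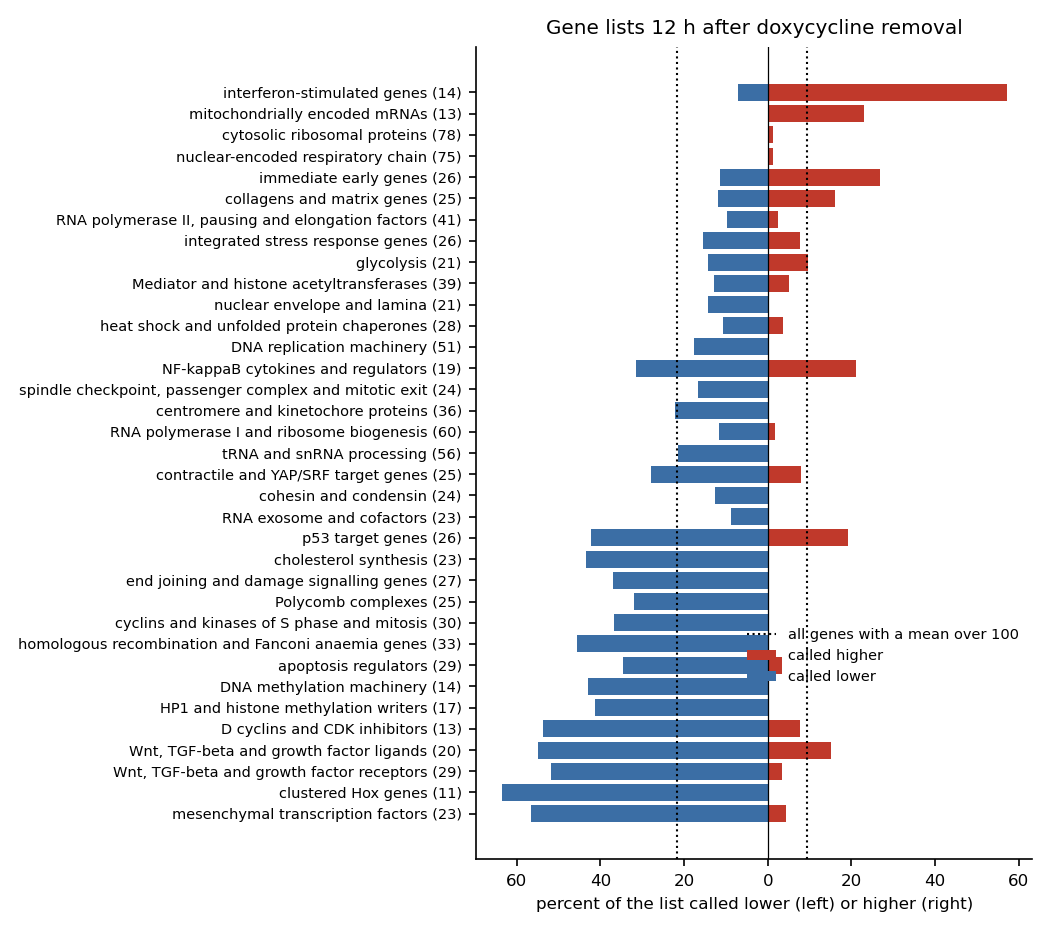
Percent of the members with a mean above 100 (number in parentheses) that were called lower (left) or higher (right) in MSR-dCas9-Activator cells at 12 h, for each gene list with at least 10 such members, ordered by median log2 fold change. Dotted lines mark all genes (21.7% lower and 9.34% higher). Interferon-stimulated genes reach 57.1% higher and Hox genes 63.6% lower. Members low in MSR-dCas9-Control cells enter a list only through libraries in which they are high.

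Cell cycle genes were called lower in part. Of 30 cyclins and kinases of S phase and mitosis 11 fell and 0 rose, with a median of -0.73. Ccna2, cyclin A2, averaged 3108 ± 203 against 10031 ± 319 normalised counts, a value of -1.69 ± 0.10 (standard error) as log2 fold change, and the phosphatase Cdc25b had -2.59. Of 13 D cyclins and CDK inhibitors 7 fell and 1 rose. Ccnd1, cyclin D1, averaged 3663 ± 406 against 13858 ± 1301, a log2 fold change of -1.92. The member that rose was Cdkn1a, the CDK inhibitor p21, at 911, 694 and 852 normalised counts against 109, 111 and 135, which is 2.79 ± 0.24 (standard error) as log2 fold change, with an adjusted p of 5.36e-11 by edgeR. Of 36 centromere and kinetochore genes 8 fell (22.2%), led by the kinetochore scaffold Knl1 at -2.10, a share close to that of all genes. Of 24 spindle checkpoint and mitotic exit genes 4 fell (16.7%), and of 24 cohesin and condensin genes 3 fell (12.5%), both below the share of all genes. Of 62 genes with symbols starting in Hist, a group chosen after its values were seen, 18 fell and 0 rose.

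DNA repair genes showed the same direction. Of 33 homologous recombination and Fanconi anaemia genes 15 fell (45.5%) and 0 rose, with a median of -0.75. Brca1 averaged 1339 ± 146 normalised counts against 4356 ± 158, a value of -1.70 ± 0.09 (standard error) as log2 fold change, and Fancb had the strongest fall of the list at -2.35. Of 27 end joining and damage signalling genes 10 fell, among them the kinase Chek2 at -2.06. Among 26 p53 target genes 5 rose and 11 fell. The risers were Trp53inp1 (3.11), Cdkn1a, Gadd45a (1.27), Sphk1 (1.25) and Btg2 (1.09), and the fallers included Phlda3 (-1.97), Zmat3 (-1.60) and Fas (-1.37). Of 29 apoptosis regulators 10 fell and 1 rose. The largest fall was in Bcl2l1, which encodes the survival protein Bcl-xL, at 380, 1005 and 466 normalised counts against 4688, 4597 and 4902, and genes that promote apoptosis (Apaf1, Bak1, Bcl2l11) fell as well.

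Interferon-stimulated genes were more often called higher than lower. Of 28 members tested 14 had a mean above 100, and of these 8 rose (57.1%) and 1 fell, with a median of 1.06. Members low in MSR-dCas9-Control cells, such as Irf7 and Ifit1, passed that limit only through libraries in which they are high. The share of risers can therefore be raised in part by the filter. Irf7, a transcription factor of the interferon response, averaged 359 ± 114 against 73.1 ± 13.7 normalised counts (SD, n = 3), with 2.27 ± 0.29 (standard error) as log2 fold change, and the RNA sensor Ddx58 averaged 2074 ± 837 against 830 ± 54.2. For several members MSR-dCas9-Activator replicate 2 was far above the other libraries. Ifit1, which binds foreign RNA, was at 19, 686 and 66.0 normalised counts against 4.17, 6.76 and 1.95, a log2 fold change of 5.37 (standard error 1.14), or 4.32 without replicate 2, and it is 1 of the 177 genes whose direction was fixed by the filter. Ifit2, of the same family, went the other way, at 198, 528 and 218 against 1414, 1379 and 1321. Without replicate 2, 6 of the list were called higher. The Ifit1 promoter, chr19:34640639-34640938 on the plus strand of GRCm38, is shown from RefSeq with the core motif of the interferon-stimulated response element, 2 copies of GAAA with any 2 bases between them, in capitals. It was searched on both strands and here occurs on the opposite one.
Ifit1 promoter: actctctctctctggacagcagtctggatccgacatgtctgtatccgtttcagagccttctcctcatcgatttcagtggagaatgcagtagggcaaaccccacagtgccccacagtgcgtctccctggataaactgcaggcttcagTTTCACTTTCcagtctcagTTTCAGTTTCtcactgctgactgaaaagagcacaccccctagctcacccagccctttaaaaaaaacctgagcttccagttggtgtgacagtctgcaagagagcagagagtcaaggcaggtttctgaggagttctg
Of the 13 members with a mean above 100 that have a promoter sequence 6 hold the motif (Bst2, Ddx58, Eif2ak2, Ifit1, Isg15 and Stat2), against 3.99% of all 27025 symbols. Both called and uncalled members hold it.

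Other signalling genes moved in both directions. Of 26 immediate early genes 7 rose and 3 fell. Atf3, a stress-induced transcription factor, averaged 1811 ± 530 against 206 ± 27.9 normalised counts, a value of 3.12 ± 0.25 (standard error) as log2 fold change, and Egr1 had 1.93, while Myc fell at -1.38. Of 19 NF-kappaB genes 4 rose and 6 fell. The cytokine Il6 was at 443, 367 and 424 against 31.3, 29.6 and 18.6, and the chemokines Ccl2 (-1.83) and Cxcl1 (-1.48) fell. Il6 and Arc, which is among the 7 immediate early risers, were low in MSR-dCas9-Control cells. Both passed the limit on the mean only through libraries in which they are high. Of 26 integrated stress response genes 2 rose and 4 fell, and of 28 heat shock and unfolded protein chaperones 1 rose and 3 fell. Hmox1, haem oxygenase, was the chaperone list's riser, at 4861, 6259 and 5917 against 2691, 2448 and 2502.

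Mesenchymal transcription factors had the lowest median of the lists with at least 10 members above the limit on the mean. Of 23 mesenchymal transcription factors 13 fell (56.5%) and 1, Sox9, rose, with a median of -1.21. Osr1 was at 134, 450 and 219 normalised counts against 1346, 1292 and 1642, and Prrx1 had a log2 fold change of -2.02, Runx2 of -2.49 and Twist1 of -1.79. Of 11 clustered Hox genes 7 fell (63.6%). Of 29 receptors 15 fell and 1 rose, with the Wnt receptor Fzd2 lowest at -3.59 (184, 662 and 245 against 3385, 3712 and 4786). The receptors of platelet-derived growth factor, Pdgfra (-1.66) and Pdgfrb (-1.64), were among them. Of 20 ligands 11 fell and 3 rose. Inhba, a subunit of activin, was at 373 to 497 against 3951 to 4128, and Wnt11 rose at 3.12. MSR-dCas9-Activator replicate 2 lay nearest to the MSR-dCas9-Control libraries for Osr1, Fzd2 and Inhba, still without overlap.

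The genes with the largest single falls were of several kinds. Usp29, an imprinted gene, was at 9.99, 11.4 and 2.87 normalised counts against 228, 245 and 256, a value of -4.81 ± 0.28 (standard error) as log2 fold change, and it was called lower before induction as well at -2.51. Hmga2, an architectural chromatin protein of proliferating cells, was at 2061, 3611 and 2092 against 31682, 30564 and 43970 (log2 fold change -3.73, standard error 0.33, adjusted p = 4.65e-10, edgeR). The groups did not overlap. The protocadherin Pcdh18 (-3.94), the matrix protease Adamts5 (-3.59), the hyaluronan synthase Has2 (-3.34) and Gm2381 (-3.67) also fell. Irs1, the insulin receptor substrate, fell at -3.71 together with Gm9747 (-3.72), which overlaps it on the other strand, so that their counts may not be independent. Among abundant transcripts, Ahnak was at 72529, 66994 and 65006 against 210318, 202215 and 249436 (-1.69) and Col1a2 at 64015, 78323 and 62894 against 190859, 181967 and 161585 (-1.39). The chemokine Cxcl12 (-3.08), beta tubulin Tubb5 (-1.27) and the cytolinker Plec (-1.74) fell too. Of 25 collagen and matrix genes 4 rose and 3 fell, with decorin (Dcn) at 1.86 and Mmp13, which was called higher before induction too, at 4.18.

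Metabolic lists split. Of 23 cholesterol synthesis genes 10 fell (43.5%) and 0 rose, with a median of -0.59. By contrast, of 78 cytosolic ribosomal protein genes 1 rose and 0 fell, with a median of 0.55, and 47 lay above all MSR-dCas9-Control libraries in all 3 MSR-dCas9-Activator libraries. Genes in general did so in 24.9% of cases and lay below in 47.4%. Of 75 nuclear-encoded respiratory chain genes 1 rose and 0 fell, with a median of 0.48. Under mitochondrial scaling the medians were -0.11 and -0.18, so the direction of both lists depends on the scaling. Of 13 mitochondrially encoded mRNAs 3 rose, mt-Co3 (1.15), mt-Nd4 (1.03) and mt-Nd4l (1.18), and 0 did under that scaling, which is set by them. Lamp1, a lysosomal membrane protein, was among the 5 most abundant protein-coding genes that rose, at 54415, 45927 and 61212 against 24258, 23642 and 26012.

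Genes of transcription and RNA processing were called in small numbers in either direction. Of 41 RNA polymerase II, pausing and elongation genes 1 rose (Aff4, of the super elongation complex, at 1.23) and 4 fell, and of 39 Mediator and acetyltransferase genes 2 rose and 5 fell. Med27 had 1.47 and Med22 -2.32. Of 60 genes of RNA polymerase I and ribosome biogenesis 7 fell and 1 rose, of 56 tRNA and snRNA processing genes 12 fell (21.4%, near the share of all genes), and of 23 RNA exosome genes 2 fell. Of 25 contractile and YAP/SRF target genes 7 fell and 2 rose, and of 51 DNA replication genes 9 fell. Of 21 glycolysis genes 3 fell and 2 rose. Of 64 small nucleolar RNAs, by contrast, 35 were lower and 2 higher, with a median of -1.42. Hprt, a common reference gene, had a log2 fold change of -0.22 and was not called.

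Before induction the lines differed little, with 51 genes called higher (0.179%) and 6 lower (0.021%), and 1 repeat family called (0.067%). Taking the 12 h effect less this difference, 3968 genes were called (13.9%), and 3664 of the 4223 genes called at 12 h were called the same way in both, a count added after the data were seen. Among repeat families 671 were called in 12 h less uninduced (45%), 1 in 12 h less 6 h (0.067%) and 9 in 12 h less 24 h (0.603%). At 6 h after removal 1013 genes were higher (3.55%) and 2927 lower (10.3%), and at 24 h 1025 were higher (3.59%) and 937 lower (3.28%). These comparisons rest on libraries of their own. Of the genes higher at 12 h 946 (74.5%) were also higher at 6 h, which is 93.4% of that list, and 924 (72.8%) at 24 h, which is 90.1% of that list. Of the genes lower at 12 h 2370 (80.2%) were also lower at 6 h but 761 (25.8%) at 24 h, where 2 were higher. The median log2 fold change of the genes lower at 12 h was -1.46 at 12 h, -1.49 at 6 h and -0.76 at 24 h.

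The difference between 12 h and 24 h was itself tested. Taking the 12 h effect less the 24 h effect, 924 genes were called (3.24%), 184 positive (0.645%) and 740 negative (2.59%), while for 12 h less 6 h 73 were called (0.256%), 64 positive (0.224%) and 9 negative (0.0315%). Without MSR-dCas9-Activator replicate 1 the count for 12 h less 24 h was 589 in all, and without replicate 2 it was 1547. Hmga2 had log2 fold changes of -3.91 at 6 h, -3.73 at 12 h and -0.65 at 24 h, a difference of -3.09 between 12 h and 24 h. Has2 showed the same course, at -4.19, -3.34 and -0.19. Ccn2, a target of YAP, went from -1.78 at 12 h to 1.24 at 24 h, and the heat shock gene Hspa1b, which was not called at 12 h, from -0.79 to 2.06. In the other direction, the receptor gene Notch3 was at 4.63 at 12 h and 1.24 at 24 h, and the hexokinase gene Hkdc1 at 7.55 and 4.98. P2rx7, an ATP-gated channel, was at 8078, 14803 and 10329 normalised counts against 228, 206 and 184 at 12 h, with log2 fold changes of 3.61 at 6 h, 5.74 at 12 h and 6.00 at 24 h. Satellite families did not pass the test of either difference, with GSAT_MM at 9.15, 9.22 and 8.60 and SYNREP_MM at 8.95, 9.65 and 8.75 at 6, 12 and 24 h.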

How the data were processed

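The authors extracted total RNA, digested remaining DNA with DNase and prepared ribosomal-RNA-depleted stranded libraries, which were sequenced as paired-end reads. Reads were trimmed (cutadapt), mapped to GRCm38 (STAR) and assigned to genes and repeats (TEtranscripts). The deposited values are raw counts per gene and repeat family, without normalisation. How multi-mapped reads were shared and the strand setting of the counting are not given in the sources used here. One entry without a name, at most 0.00452% of a library, was left out, and 54495 genes matched GENCODE M21.

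Analyses used R 4.3.3 with edgeR 4.0.16 (glmQLFit with robust fitting, glmQLFTest) and DESeq2 1.42.0, and Python 3.11.15 with scipy 1.17.1. All 36 libraries (35092024 to 71148411 counts each) were fitted together with 12 groups and the replicate number as block, with TMM factors from genes for genes and repeats, and p-values were adjusted by Benjamini-Hochberg over 28542 genes or 1492 repeat families that passed filterByExpr. A standard error is the absolute log2 fold change over the root of F. Bounds for genes with 0 counts use a floor of 3 counts over the group, and cover counting error only. The study's design uses the replicate number. Correlations of deviations from group means between same-numbered libraries at 12 h were 0.266, -0.0265 and 0.369, so pairing was not shown for all samples. The share of Gm26917 rose with the replicate number in both groups at 12 h.

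Named were GSAT_MM, SYNREP_MM, L1Md_A, IAPEz-int, MERVL-int, MT2_Mm and Hprt; among called repeat families averaging at least 100 at 12 h, the 5 top risers (GSAT_MM and SYNREP_MM left out) and 5 top fallers; among called protein-coding genes without overlap between groups, the 10 top risers and 10 top fallers; the 5 most abundant called protein-coding genes in each direction; the largest called rise and fall in each gene list, or the most abundant member where there was neither; and the 5 protein-coding genes with the largest differences each way in 12 h less 24 h and in 12 h less 6 h. Some genes that this rule names are not reported here. Other members of the lists were added as examples after their values were seen, as were the silent, receptor, histone, small nucleolar, polymerase III, rRNA-like and satellite-like groups, Sfi1, Actb and Gapdh. Members and lists were chosen with earlier results of these data known. Promoter sequences are from RefSeq on GRCm38.p6, for 27025 symbols.

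Alternatives covered no replicate block, scaling by DESeq2 size factors, by library size alone or to 13 mitochondrially encoded mRNAs, testing by DESeq2, no filter, other limits on the mean and fold, repeat counts in the library size, the 6 libraries alone, and leaving out each library. The steps were tested on simulated data for the 12 h comparison, where of 50 genes with a true log2 change of 1, 27 were called among 22279 genes, and of 50 with 1.5 all 50, with 0 false calls. Among 1456 repeat families 50 of 50 were called at each size, with 5 false calls. For genes the limit was itself a log2 change of 1, so a true change of 1 could fall on either side of it. Rises and falls were simulated in equal numbers, in features with counts in MSR-dCas9-Control cells. The simulation therefore did not cover silent genes, a shift of most genes in the same direction or the choice of scaling.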

Additional observations from a re-analysis of the deposited data

Results flagged for a closer look

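The results here are those of named genes and of counts whose change at 12 h differed from the change at another time by edgeR's quasi-likelihood test of the difference itself. The 12 h effect less the uninduced effect was called for 3968 genes and 671 repeat families, the 12 h effect less the 6 h effect for 73 genes and 1 repeat family, and the 12 h effect less the 24 h effect for 924 genes and 9 repeat families. Each value below is a difference of 2 log2 fold changes.

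Most of the named genes here had a more negative change at 12 h than at 24 h. Many were named for a large fall at 12 h or for this difference itself, so that lean is set in part by the choice of genes. In 12 h less 24 h the difference was -2.58 for Pcdh18, -3.09 for Hmga2, -1.88 for Adamts5, -1.85 for Fzd2, -3.15 for Has2, -1.42 for Cxcl12 and -1.25 for Plec. Irs1 had -2.43 and the overlapping Gm9747 -2.36. The ligands Inhba (-2.05), Csf1 (-1.73), Apln (-3.03) and Ccn2 (-3.03), the secreted protein Thbs1 (-1.98), and the transcription factors Osr1 (-1.73), Hoxb4 (-1.38) and Fosl1 (-2.21) had the same sign. Usp29, which was called lower before induction too, had -2.20.

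Genes of other lists with a negative difference in 12 h less 24 h were Bcl2l1 (-2.11), Phlda3 (-1.30), Dusp6 (-1.84), Hspb8 (-1.14), Hspa1b (-2.86), Ifit2 (-1.03), Mbd2 (-1.28), Exosc7 (-1.27), Polr1b (-1.33), Ints5 (-1.17), Med22 (-1.40), Mllt3 (-1.02) and Hk2 (-1.25), and the U5 repeat family (-1.38). Positive differences were found for Notch3 (3.39), Slc17a8 (2.68), Fmod (2.64), Hkdc1 (2.57), Slc23a4 (2.51), Nt5e (1.47) and Slc13a4 (1.47). Gm23935 had 5.95, a value that rests on MSR-dCas9-Activator replicate 3, the library with the high rRNA share.

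In 12 h less 6 h, P2rx7 (2.13), Tcn2 (1.95), Slc13a4 (1.89), Prickle2 (1.88), Fosl1 (1.8), Il6 (1.51) and Hmox1 (1.30) were positive. S100a4 (-1.42), Shank2 (-1.34), Sema3a (-1.21) and the linker histone gene Hist1h1a (-1.20) were negative, and Gm42674 (-1.41) overlaps S100a4, so that their counts may not be independent.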

How the results depend on the processing

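Of 4223 genes called at 12 h, mitochondrial mRNA scaling gave 6958, no limit on the mean 14267 (9122 higher, 5145 lower) and a fold above 1.5 gave 7236. The 763 repeat families became 426 at a log2 fold change beyond 1. For 12 h less uninduced, 3968 genes became 6839, 9489 and 6796 under the same 3 changes as for genes. For 12 h less 6 h, 73 genes became 46 with library size without TMM, 1 with mitochondrial scaling, 148 with DESeq2, 130 with no limit on the mean and 299 at a fold above 1.5, and leaving out each library gave 32 (MSR-dCas9-Activator replicate 3) to 163 (replicate 1), with 33 and 37 without MSR-dCas9-Control replicates 2 and 3 and 42 without MSR-dCas9-Activator replicate 2. For 12 h less 24 h, 924 genes became 1518 with mitochondrial scaling, 1589 with no limit on the mean and 2369 at a fold above 1.5, and leaving out each library gave 589 (MSR-dCas9-Activator replicate 1) to 1547 (replicate 2). For repeat families in 12 h less 24 h, 9 became 36 with DESeq2 size factors, 41 with DESeq2, 30 with repeat counts in the library size, 5 with library size without TMM, 2 with mitochondrial scaling and 4 beyond a log2 fold change of 1, and leaving out each library gave 2 (MSR-dCas9-Control replicate 3) to 10, with 4 without MSR-dCas9-Control replicate 1 or MSR-dCas9-Activator replicate 3. The causes were not tested.

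Without the replicate block, 4117 genes were called at 12 h against 4223 with it, 41 against 73 for 12 h less 6 h, and 2 against 9 repeat families for 12 h less 24 h. Same-numbered libraries did not all deviate together at 12 h, while the share of Gm26917 rose with the replicate number in both groups.

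The log2 fold change of Fosl1, -0.10, turned to 0.08 with DESeq2 size factors and with DESeq2 and, with each library left out, ranged from -0.24 to 0.03 (without MSR-dCas9-Activator replicate 1). Actb (0.11) turned to -0.02 with library size alone, -0.55 with mitochondrial scaling and -0.05 without that replicate (up to 0.29 without others), and Gapdh (0.12) to -0.01, -0.54 and -0.02 (up to 0.33). B1_Mm (0.44) turned to -0.21 with mitochondrial scaling. None of these 4 was called. Over all alternatives, 2037 other values of single genes and families kept their direction and side of the limits, 50 lost the call and 7 gained it. With 3 libraries a group, changes near the fold limit can fall on either side of it and so be missed.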

Other observations

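Some classes of gene models differed from genes in general in how often they were called. Among all genes with a mean above 100, 9.34% were higher and 21.7% lower. Antisense and protein-coding models lay near both shares, as did processed pseudogenes for rises. These groups were chosen after their values were seen. Of 487 models annotated TEC, which await experimental evidence, 227 fell and 53 rose, and the median was -0.90 as log2 fold change. Of 333 processed pseudogenes, which can share reads with their parent genes, 32 rose and 22 fell, with a median of 0.45. Of 541 antisense models 128 fell and 54 rose (median -0.28), and of 272 lincRNAs 72 fell and 69 rose (median -0.13). Protein-coding genes stood at 974 higher and 2356 lower of 11322, with a median of -0.27. Of 307 genes with symbols starting in Zfp, most of them zinc finger genes, 108 fell and 15 rose, with a median of -0.57.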
